A study of Mus musculus with 12 samples.

Results

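Zfp36, Zfp36l1, Zfp36l2, Btg1, Btg2, Ier2, Ier3 and Ier5 are 8 response genes of RNA decay, proliferation control and the first wave of transcription after a stimulus. They were found by gene symbol in both deposited tables, 8 of 23284 genes listed in each, and all 8 reached the mean level of 1 FPKM at which genes were tested in either tissue. The values come from invariant natural killer T (NKT) cells of C57BL/6 mice, innate-like T cells whose receptor sees lipids on CD1d, in 12 libraries from 4 groups of 3. Thymus cKO and liver cKO cells are NKT cells of double-negative (DN) origin, from mice in which E8III-Cre, active at the double-positive (DP) stage of thymocytes, deletes a floxed Rag2 gene. Thymus YFP+ and liver YFP+ cells are NKT cells of DP origin, from mice with the same Cre and a Rosa26-loxP-STOP-loxP reporter. All groups therefore carry E8III-Cre, and all were sorted as 7AAD-, CD45R-, CD4- and CD8- cells with TCRb and CD1d dimer staining. Ages, and whether animals were pooled, are not given in the sources used here. Origin cannot be told apart from the kind of mouse, because each origin came from its own strain combination.

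Zfp36 (tristetraprolin), Zfp36l1 and Zfp36l2 are zinc finger proteins that bind AU-rich elements in 3' untranslated regions and recruit the CCR4-NOT deadenylase, which shortens the poly(A) tail and starts decay of the mRNA. Btg1 and Btg2 are antiproliferative BTG/TOB proteins that also bind the deadenylase, and in mouse T cells they are known to keep resting cells quiescent. Ier2, Ier3 and Ier5 are immediate early genes, transcribed within minutes of growth factor, stress or antigen receptor signals without new protein synthesis. Their own mRNAs are often unstable, so their levels follow recent signalling closely.

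Several of these mRNAs carry the kind of site that Zfp36 proteins read. The windows below are 28 bases of each 3' untranslated region that held the heptamer TATTTAT, taken from GENCODE M21 transcripts (GRCm38) and shown because this is the site that Zfp36 proteins bind. Capitals mark each heptamer.
Zfp36: atgacgacttTATTTATtgtattaagat
Zfp36l1: actgttggatTATTTATtttagaaattc
Zfp36l2: ctatttaactTATTTATtatcttgtgaa
Btg2: aatgaagagcTATTTATacatgtttttt
Ier3: gtctaattaaTATTTATgTATTTATgta
Ier3 held 4 heptamers in 613 bases of 3' untranslated region and Zfp36 held 3 in 774 bases. Zfp36l1 and Zfp36l2 held 3 each, in 1835 and 1822 bases, and Btg2 held 1 in 2199 bases. Btg1, Ier2 and Ier5 held 0 in 4166, 755 and 2143 bases. Of 20979 genes with an annotated region 27.5% held the heptamer. Among regions close in length it was 16.4% for Ier3, 19.8% for Zfp36, 38.8% for Zfp36l1, 38.5% for Zfp36l2 and 43.5% for Btg2, and for the members without it 60.8% for Btg1, 19.3% for Ier2 and 43.1% for Ier5. A match is a description of the letters and not of binding.

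Promoters differed between the members as well. Below are the 250 bases upstream of the annotated start, 5' to 3', from RefSeq on GRCm38.p6, for the pair of members with the largest differences in the thymus and for both Btg genes. The deposited values were made on mm9, and no coordinate was carried over. Both strands were searched. Capitals mark the cAMP response element (TGACGTCA) and its core, the TATA box, the CCAAT box, the CArG box of serum response factor and the NF-kB site.
Zfp36 (chr7:28379229-28379478, minus strand): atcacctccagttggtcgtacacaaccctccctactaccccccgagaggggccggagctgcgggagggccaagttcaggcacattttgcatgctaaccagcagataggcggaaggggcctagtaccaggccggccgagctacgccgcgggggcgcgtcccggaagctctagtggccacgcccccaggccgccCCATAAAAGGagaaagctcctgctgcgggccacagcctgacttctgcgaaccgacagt
Ier3 (chr17:35821463-35821712, plus strand): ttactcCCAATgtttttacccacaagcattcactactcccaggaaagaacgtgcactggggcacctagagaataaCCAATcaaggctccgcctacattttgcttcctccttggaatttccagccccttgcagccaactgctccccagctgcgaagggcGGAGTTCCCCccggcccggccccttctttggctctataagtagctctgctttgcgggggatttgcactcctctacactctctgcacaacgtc
Btg1 (chr10:96616751-96617000, plus strand): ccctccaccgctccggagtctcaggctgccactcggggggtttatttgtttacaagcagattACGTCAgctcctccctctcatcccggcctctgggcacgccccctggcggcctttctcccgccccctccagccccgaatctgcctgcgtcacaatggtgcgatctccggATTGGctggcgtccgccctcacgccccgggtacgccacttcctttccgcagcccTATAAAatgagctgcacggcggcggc
Btg2 (chr1:134079156-134079405, minus strand): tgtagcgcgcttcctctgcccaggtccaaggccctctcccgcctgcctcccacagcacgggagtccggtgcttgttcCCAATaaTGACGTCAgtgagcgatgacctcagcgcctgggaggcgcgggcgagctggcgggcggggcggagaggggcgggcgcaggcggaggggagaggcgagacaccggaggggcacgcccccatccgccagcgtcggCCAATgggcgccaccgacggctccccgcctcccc
The table matched 6 of the 8 members. The CArG box was in the Zfp36 window, at position -58 from the start, and in 1.47% of all 32851 windows of this length. The NF-kB site was in the Ier3 window, at position -92, and in 3.9% of windows. The full element was in the Btg2 window, at position -166, and in 1.55% of windows. It holds its core, the letters ACGTCA, on both strands. The core alone was in the Btg1 window, at position -188, and in 6.47% of windows. The TATA box, the letters TATAAA, was also in the Btg1 window, at position -26, and in 12.4% of windows. The CCAAT box was in 5 of the 6 windows and in 33.8% of all.

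Some facts of the libraries bear on what follows. Rag2, the targeted gene, was listed at 0 in the liver cKO libraries and at 1.365, 0.985 and 1.075 FPKM in the liver YFP+ libraries, while among thymus libraries all but cKO replicate 2 (0.015 FPKM) had it at 0. DP thymocyte genes that were not targeted had lower means in liver cKO too. Rag1 averaged 0.188 FPKM in liver cKO and 1.72 FPKM in liver YFP+ libraries, and Dntt 0.546 and 16.1 FPKM. The Rag2 values therefore do not settle which mouse the liver libraries came from. The liver groups follow the titles, with which the column headers match. The description field of these 6 libraries names the opposite mouse, and if it holds each liver direction turns round and the differences between tissues change with it. Of 8 T cell and NKT cell markers, all tested, 0 were higher and 3 lower in thymus cKO (Zbtb16, Il2rb and Cd3e), and in liver cKO 2 were higher (Il2rb and Cd247) and 2 lower (Cd3d and Klrb1c). Zbtb16, the PLZF factor that defines NKT cells, was lower in the thymus, at 3.15, 3.84 and 4.27 FPKM in cKO, against 11.0, 12.2 and 13.5 FPKM in YFP+ libraries, and lay between 8.91 and 13.4 FPKM in the liver libraries. In the thymus cKO replicate 1 stood apart, with the heat shock gene Hspa1a at 90.7 FPKM against 743 and 751 FPKM in the other cKO libraries, and 6 erythroid markers summed to 0.179 to 108 FPKM over thymus cKO libraries, highest there, and to 0.152 to 0.851 FPKM over thymus YFP+ libraries. The tables give no read totals, and depth is therefore unknown. Genes listed at 0 numbered 6702 to 6841 in liver cKO and 8800 to 8869 in liver YFP+ libraries, and the FPKM of a library summed to 450429 to 465304 in liver cKO and 509267 to 558042 in liver YFP+ libraries. In the thymus 4033 to 4370 genes were at 0 in cKO libraries, against 4571, 4707 and 5740 in YFP+ replicates 1, 2 and 3, so that YFP+ replicate 3 stood apart too. The part of these differences in the results was not tested. In bulk RNA, fewer cells of a type and less RNA per cell cannot be told apart. Nothing in the labels says whether replicates are separate animals, and the p-values cover only the spread of these libraries, which may be technical.

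In the thymus, 3 of the 8 members were higher in cKO than in YFP+ cells and 0 were lower. Zfp36, Ier2 and Ier3 rose, by 2.04, 1.53 and 3.61 times on the means of FPKM, and Ier5 just missed the threshold. The other decay and quiescence genes, Zfp36l1, Zfp36l2, Btg1 and Btg2, did not pass. Among all 9097 genes tested, 2.64% passed as higher and 13.1% as lower at an adjusted p under 0.05 (limma on log2(FPKM + 1), Benjamini-Hochberg over all genes). On this log2 scale the median difference of all genes was -0.16, and the test is of each gene's difference as deposited. Each p below therefore belongs to the deposited log2 difference, and the value relative to the median gene is given beside it with no test; the SE is that of the deposited difference. The median member lay at 0.47, against 0 for all genes tested by construction.

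Zfp36, the tristetraprolin gene, was at 92.3, 177 and 184 FPKM in thymus cKO replicates 1, 2 and 3, against 75.6, 89.8 and 57.4 FPKM in thymus YFP+ replicates 1, 2 and 3. All cKO libraries lay above all YFP+ libraries, but cKO replicate 1 only just did. The deposited log2 difference was 0.97 ± 0.27 (SE), with an adjusted p of 0.0436 in limma, and was 1.14 relative to the median gene. Without cKO replicate 1 the adjusted p was 0.00126. The call was lost without cKO replicate 2 (0.118) or cKO replicate 3 (0.127), and without YFP+ replicate 1 (0.0992), 2 (0.0645) or 3 (0.154). It was also lost with libraries rescaled by median ratios (0.0509), with quantile normalization (0.0758), when genes of low level were kept in (0.206) and with a replicate block (0.0559).

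Zfp36l2, a close relative that acts in lymphocyte development, was at 130, 164 and 219 FPKM in thymus cKO, against 207, 212 and 202 FPKM in thymus YFP+ libraries. The cKO libraries spread widely, and the highest of them lay above every YFP+ library. Zfp36l2 did not pass (deposited log2 difference -0.30 ± 0.16, adjusted p = 0.203 in limma, -0.14 relative to the median gene), but did as lower without cKO replicate 3 (0.0462). Zfp36l1, the third of the decay factors, was at 25.5, 22.2 and 23.2 FPKM in cKO, against 26.6, 27.7 and 26.5 FPKM in YFP+ libraries. These groups did not overlap, and the deposited log2 difference was -0.18 ± 0.08 (adjusted p = 0.125 in limma). Relative to the median gene it was -0.02.

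**Figure D1:**
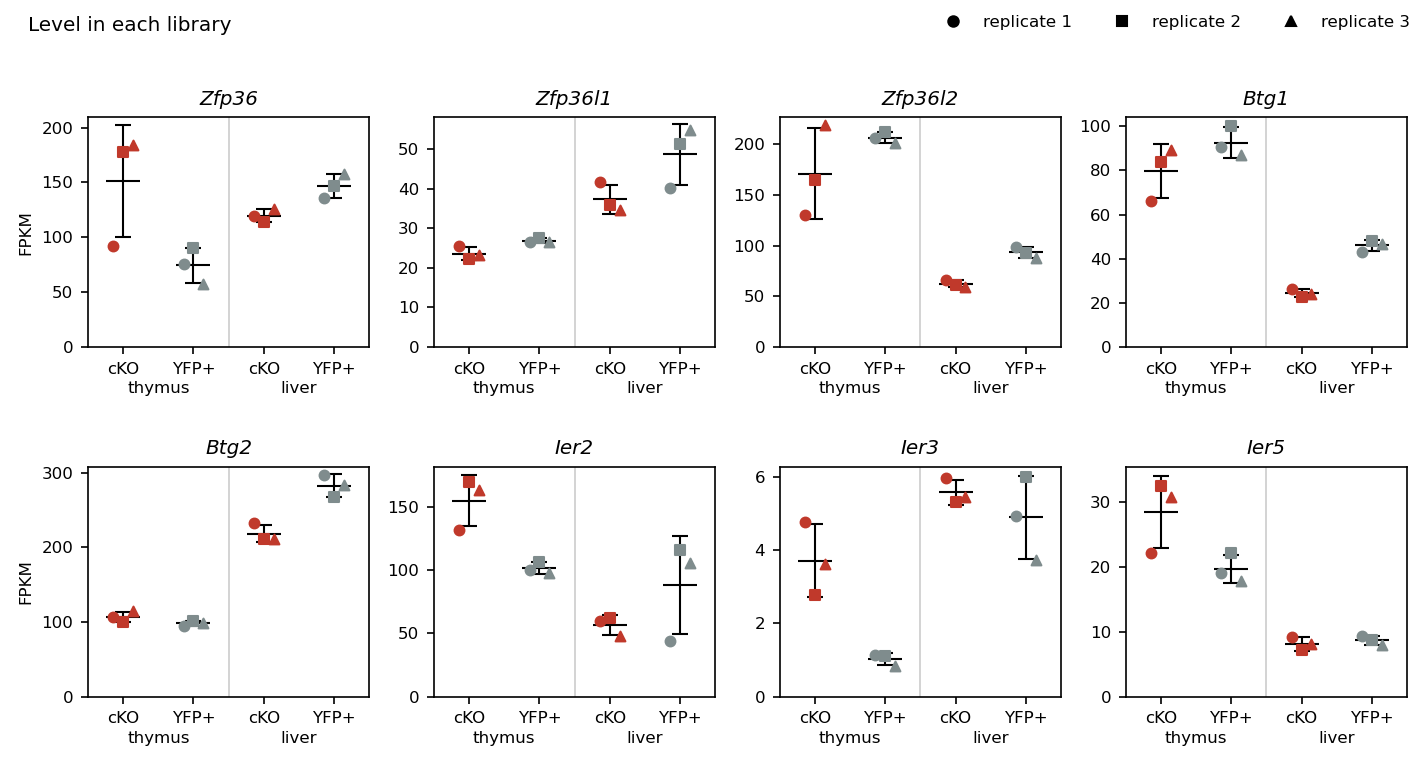
FPKM of each member (vertical axis, from 0, a scale of its own per gene) in the 4 groups; points are libraries with a marker per replicate number, bars are the mean and SD of 3 libraries. In the thymus the cKO libraries lie above the YFP+ libraries for Zfp36, Ier2, Ier3 and Ier5, and in the liver below them for Zfp36, Zfp36l2, Btg1 and Btg2; thymus and liver were normalized separately.

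The make-up of the Zfp36 family is given by library, without a test. Zfp36 was 37.2, 48.7 and 43.2% of the summed FPKM of the 3 genes in thymus cKO libraries, against 24.5, 27.3 and 20.1% in thymus YFP+ libraries. Zfp36l2 was 52.5, 45.2 and 51.4% in cKO, against 66.9, 64.4 and 70.7% in YFP+ libraries. Neither share overlapped between the groups, and as ratios within a library they do not move with its scaling. The summed FPKM of the 3 genes was 346 ± 90.4 in cKO and 308 ± 21.97 in YFP+ libraries (mean ± SD, n = 3), with overlapping libraries.

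Ier2, a nuclear protein of the immediate early class, was at 132, 169 and 163 FPKM in thymus cKO, against 100.1, 107 and 97.3 FPKM in thymus YFP+ libraries. The groups did not overlap, and the lowest cKO library was again replicate 1. Ier2 differed by 0.60 ± 0.10 in log2 as deposited (adjusted p = 0.00913 in limma) and by 0.76 relative to the median gene. It passed in each fit that left out 1 library, at 0.000513 to 0.0469, but not with the spread estimated over all 12 libraries (0.151) or with no filter on low values (0.0697).

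Ier3, a stress-inducible regulator of survival, was the scarcest member, at 4.76, 2.78 and 3.61 FPKM in thymus cKO, against 1.131, 1.116 and 0.843 FPKM in thymus YFP+ libraries. Here cKO replicate 1, the lowest cKO library for Zfp36, Ier2 and Ier5, was the highest. As deposited the log2 difference was 1.20 ± 0.16 (adjusted p = 0.0029 in limma), a value the pseudocount of 1 holds down at this level, and it was 1.36 relative to the median gene. It passed in each fit that left out 1 library, at 0.00186 to 0.0217, and was 0.0512 with no filter on low values.

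Ier5, a regulator linked to the heat shock response, was at 22.2, 32.5 and 30.8 FPKM in thymus cKO, against 19.0, 22.1 and 17.8 FPKM in thymus YFP+ libraries. The lowest cKO library and the highest YFP+ library differed by less than 0.1 FPKM. The deposited log2 difference was 0.50 ± 0.15 (0.67 relative to the median gene), with an adjusted p of 0.0527 in limma, and of 0.00361 without cKO replicate 1. With median-ratio scaling the adjusted p was 0.047.

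Of the antiproliferative genes, Btg1 was at 66.1, 83.7 and 89.5 FPKM in thymus cKO, against 90.7, 100.3 and 87.0 FPKM in thymus YFP+ libraries, a deposited log2 difference of -0.22 ± 0.12 (adjusted p = 0.199 in limma) that was -0.06 relative to the median gene. Btg2 was at 106, 99.7 and 114 FPKM in cKO, against 94.97, 102 and 98.3 FPKM in YFP+ libraries, a deposited log2 difference of 0.12 ± 0.07 that was 0.28 relative to the median gene. The cKO and YFP+ libraries overlapped for both genes. Btg2 did not pass as deposited (adjusted p = 0.277 in limma for the 0.12) but did with median-ratio scaling (0.0443). Over the 8 members, 4 had cKO libraries all above and 1 all below the YFP+ libraries, where 5.34% and 37.6% of tested genes did (42.9% in all).

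**Figure D2:**
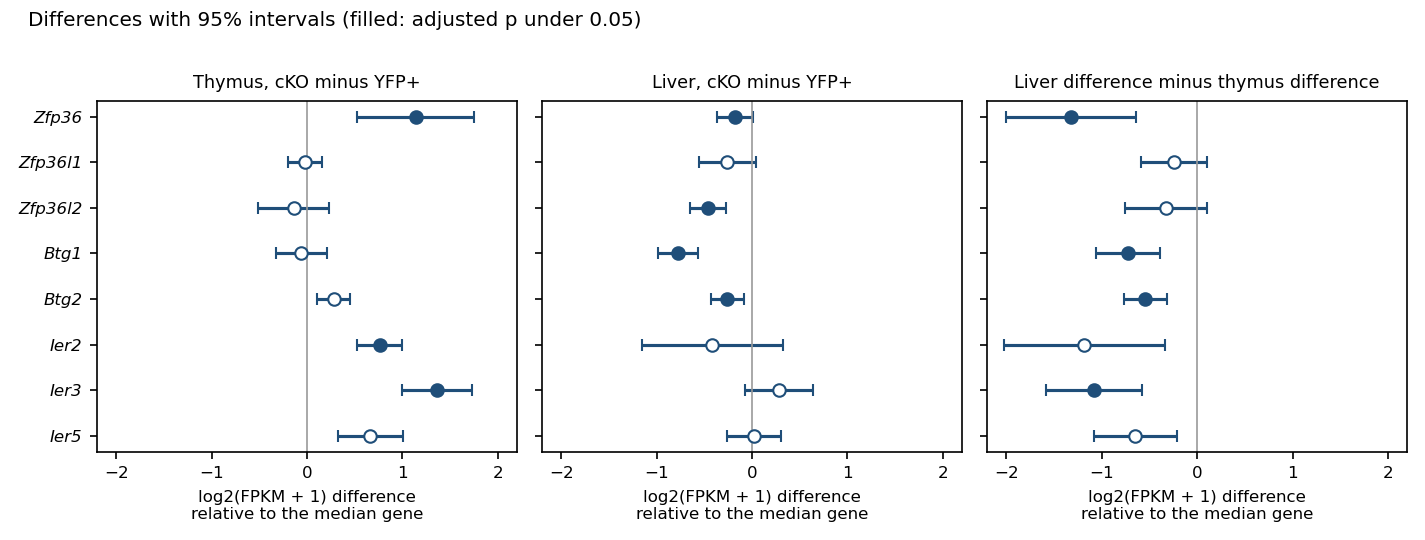
Difference in log2(FPKM + 1) relative to the median gene (horizontal axis) for each member, with its 95% interval from limma; filled points passed at an adjusted p under 0.05, tested on the values as deposited. From left to right: thymus cKO minus YFP+, liver cKO minus YFP+, and the liver difference minus the thymus difference, where all 8 points lie below 0.

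In the liver, Btg1, Zfp36l2, Btg2 and Zfp36 were lower in cKO than in YFP+ cells, 4 of 8 members, and 0 were higher. Liver Btg1 in cKO cells stood at 0.532 of its YFP+ mean, the largest relative difference of a member there. None of the Ier genes passed. Of 9591 genes tested, 19.7% passed as lower and 7.49% as higher, 27.2% in either direction. The median difference of all genes was -0.11, and that of the members lay at -0.26 relative to it.

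Btg1 was at 26.4, 22.8 and 24.2 FPKM in liver cKO, against 43.2, 48.0 and 46.8 FPKM in liver YFP+ libraries. The groups were far apart compared with the spread inside them. Btg1 differed by -0.89 ± 0.09 in log2 as deposited (adjusted p = 0.000486 in limma) and by -0.78 relative to the median gene. It passed in all 13 alternatives, at adjusted p of 7.83e-05 to 0.0076.

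Btg2, the most abundant member in liver cells of both origins, was at 232, 212.0 and 211.6 FPKM in liver cKO, against 298, 267 and 284 FPKM in liver YFP+ libraries. The groups did not overlap, with a deposited log2 difference of -0.37 ± 0.08 (adjusted p = 0.00913 in limma) that was -0.26 relative to the median gene. The call was lost with median-ratio scaling (0.0919), and with quantile normalization (0.994), where the difference was -0.01 relative to the median gene. Btg2 was the more abundant of the pair in every library, and the ratio of Btg2 to Btg1 was 8.81, 9.30 and 8.74 in liver cKO, against 6.89, 5.57 and 6.06 in liver YFP+ libraries. In the thymus the ratio was 1.61, 1.19 and 1.28 in cKO, against 1.05, 1.01 and 1.13 in YFP+ libraries. In both tissues the cKO ratios lay above the YFP+ ratios.

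**Figure D3:**
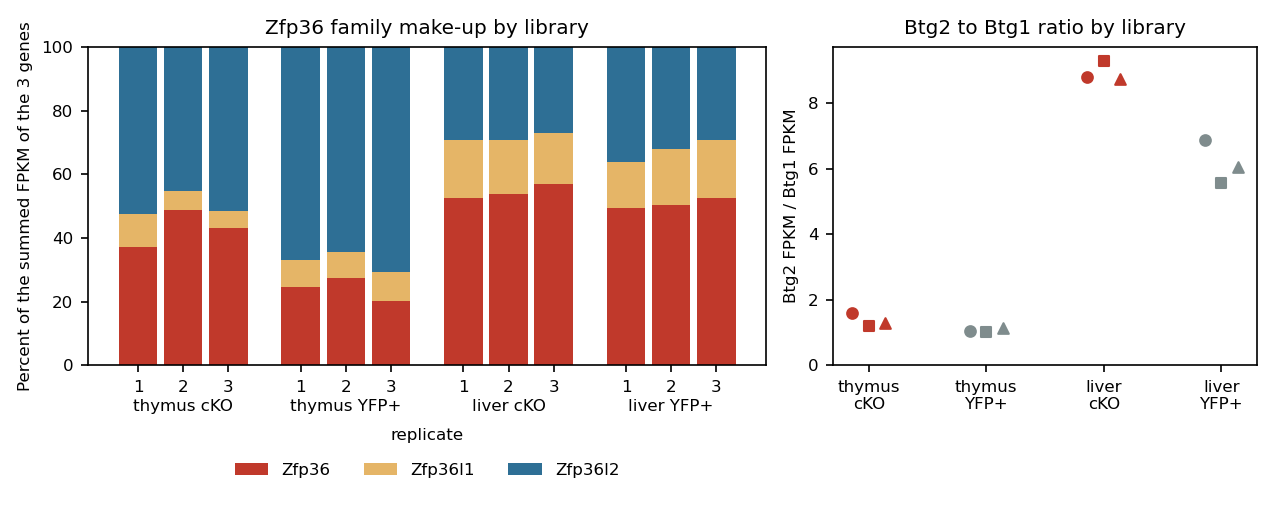
Left, percent of the summed FPKM of Zfp36, Zfp36l1 and Zfp36l2 held by each gene (stacked bars, 1 per library); right, Btg2 FPKM divided by Btg1 FPKM, 1 point per library, marker shapes by replicate as in the plot of levels. Zfp36 holds 37.2 to 48.7% in thymus cKO and 20.1 to 27.3% in thymus YFP+ libraries; in both tissues the Btg2 to Btg1 ratio is higher in cKO.

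Zfp36l2 was at 66.3, 61.4 and 59.6 FPKM in liver cKO, against 99.1, 93.1 and 87.7 FPKM in liver YFP+ libraries. The groups did not overlap, the deposited log2 difference was -0.57 ± 0.08 (adjusted p = 0.00224 in limma), -0.46 relative to the median gene, and it passed in all 13 alternatives. Zfp36l1 was at 41.6, 35.8 and 34.6 FPKM in liver cKO, against 40.1, 51.3 and 54.9 FPKM in liver YFP+ libraries. It overlapped through YFP+ replicate 1 and did not pass (deposited log2 difference -0.37 ± 0.13, adjusted p = 0.068 in limma, -0.26 relative to the median gene), but did without that library (0.00997).

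Zfp36 was at 120, 114 and 125 FPKM in liver cKO, against 136, 146 and 158 FPKM in liver YFP+ libraries. The groups did not overlap, and the deposited log2 difference was -0.29 ± 0.08 (adjusted p = 0.0317 in limma). Relative to the median gene it was -0.18, with a 95% interval of -0.37 to 0.01. The call was lost without cKO replicate 1 (0.0958), 2 (0.116) or 3 (0.06), and without YFP+ replicate 2 (0.0896) or 3 (0.0556). It ended with median-ratio scaling (0.149), with quantile normalization (0.898), when genes of low level were kept in (0.0846), with the spread over all 12 libraries (0.337) and with a replicate block (0.052). The family shares were close in the liver, with Zfp36 at 52.57, 53.9 and 57.1% in cKO, against 49.4, 50.3 and 52.53% in YFP+ libraries. Zfp36l2 was at 29.14, 29.10 and 27.1% in cKO, against 36.0, 32.0 and 29.21% in YFP+ libraries. As in the thymus neither share overlapped, with the same direction, but here only just.

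Ier2 was at 59.5, 62.4 and 47.6 FPKM in liver cKO, against 43.6, 116 and 105 FPKM in liver YFP+ libraries. The low library was YFP+ replicate 1, below every cKO library. As deposited the log2 difference was -0.52 ± 0.32 (adjusted p = 0.263 in limma), and without YFP+ replicate 1 it was -0.96 (0.00165). Relative to the median gene it was -0.41. Ier3 was at 5.96, 5.32 and 5.46 FPKM in cKO, against 4.95, 5.99 and 3.75 FPKM in YFP+ libraries, a deposited log2 difference of 0.18 ± 0.16 (adjusted p = 0.442 in limma) that was 0.28 relative to the median gene. Ier5 was at 9.22, 7.11 and 8.11 FPKM in cKO, against 9.34, 8.70 and 7.99 FPKM in YFP+ libraries, with a deposited log2 difference of -0.09 ± 0.12 (adjusted p = 0.647 in limma). Relative to the median gene this was 0.02, with a 95% interval of -0.26 to 0.31. For all 3 Ier genes the liver groups overlapped. Over the 8 members, 4 had cKO libraries all below the YFP+ libraries and 0 all above, where 29.6% and 14.7% of tested genes did (44.3% in all).

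Markers of other cell types differed between the liver groups. Of 6 B cell markers 3 were tested and 3 were lower in cKO, and their summed FPKM was 4.70 to 6.37 in cKO and 51.8 to 57.1 in YFP+ libraries. The 8 DP thymocyte markers summed to 13.4 to 14.9 FPKM in cKO and 56.3 to 64.3 FPKM in YFP+ libraries, and all 4 tested were lower. The 6 erythroid markers summed to 9.83 to 15.0 FPKM in cKO and 641 to 742 FPKM in YFP+ libraries, and all 4 tested were lower. Of 7 myeloid markers 1 of 4 tested, Lyz2, was lower, and they summed to 29.6 to 35.3 FPKM in cKO and 63.4 to 90.2 FPKM in YFP+ libraries. Hepatocyte markers summed to 12.6 to 16.5 FPKM in cKO and 37.9 to 42.6 FPKM in YFP+ libraries, with Trf lower of 2 tested. These sums were mostly Trf, at means of 12.2 FPKM in liver cKO and 38.4 FPKM in liver YFP+ libraries. Trf was lower in thymus cKO too, at means of 4.80 FPKM in cKO and 27.6 FPKM in YFP+ libraries. The other marker tested in the liver did not pass, Ttr was listed at 0 in all and Alb did not exceed 0.059 FPKM. The gamma-delta T cell markers, 2 higher and 1 lower of 3 tested, summed to 16.3 to 20.1 FPKM in cKO and 6.02 to 7.16 FPKM in YFP+ libraries. Of 5 NK cell and type 1 innate lymphoid markers 4 were tested in the liver, and 2 were higher and 2 lower in cKO. They summed to 372 to 387 FPKM in liver cKO and 361 to 454 FPKM in liver YFP+ libraries. In the thymus 3 of them were tested, and 1 was higher and 2 lower in cKO. The part of these cells in the liver values of Btg1, Btg2, Zfp36 and Zfp36l2 was not tested. In the thymus the DP thymocyte markers summed to 0.498 to 1.80 FPKM in cKO and 2.15 to 4.06 FPKM in YFP+ libraries, and the B cell markers to 1.49 to 1.61 FPKM in cKO and 1.74 to 2.87 FPKM in YFP+ libraries.

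The difference between origins itself differed between the tissues for 4 members. The test took cKO minus YFP+ in the liver and subtracted the same in the thymus, over all 12 libraries, and 5.91% of 9739 genes passed as lower and 9.14% as higher. The deposited difference, with the value relative to the median gene after it, was -1.26 ± 0.31 and -1.32 for Zfp36 (adjusted p = 0.0196 in limma). It was -1.02 ± 0.23 and -1.08 for Ier3 (adjusted p = 0.0127 in limma). Btg1 gave -0.66 ± 0.15 and -0.72 (adjusted p = 0.0145 in limma), and Btg2 -0.49 ± 0.10 and -0.55 (adjusted p = 0.00915 in limma). Zfp36 and Ier3 were higher in thymus cKO and Zfp36 was lower in liver cKO, while Btg1 and Btg2 were lower in liver cKO without passing in the thymus. Ier2 gave -1.12 ± 0.39 and -1.18 (adjusted p = 0.0742 in limma) and passed without liver YFP+ replicate 1 (0.000305). Ier5 gave -0.59 ± 0.20 and -0.65 (adjusted p = 0.0707 in limma) and passed without thymus cKO replicate 1 (0.0114). Zfp36l1, at -0.18 ± 0.16, and Zfp36l2, at -0.27 ± 0.20, did not pass (adjusted p = 0.477 and 0.398 in limma), with 95% intervals of -0.53 to 0.16 and -0.70 to 0.16 as deposited.

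**Figure D4:**
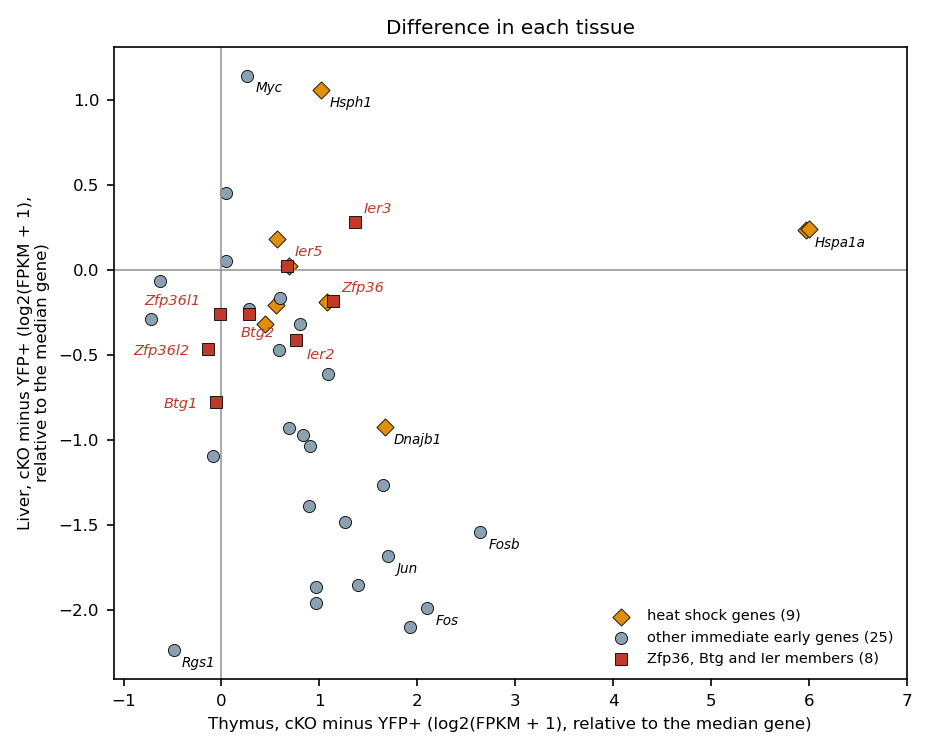
Difference in log2(FPKM + 1) between cKO and YFP+ cells relative to the median gene, in the thymus (horizontal axis) and in the liver (vertical axis), for the 8 members, 25 other immediate early genes and 9 heat shock genes; 1 point per gene. Above the median gene in the thymus and below it in the liver lie 18 of the 25 immediate early genes, 4 of the 9 heat shock genes and 3 of the 8 members. The share of all genes that lie there was not counted.

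Levels of members can be ordered within a group, since FPKM are per length. In thymus cKO Zfp36l2, Ier2, Zfp36 and Btg2 led, at means of 171, 155, 151 and 107 FPKM, and neighbours among these overlapped between libraries. Btg1, at 79.8 FPKM, lay below them and above Ier5 (28.5) and Zfp36l1 (23.6), which overlapped, and Ier3 (3.72) came last. In thymus YFP+ Zfp36l2 led alone at 207 FPKM, and Ier2, Btg2, Btg1 and Zfp36 followed at 101, 98.3, 92.6 and 74.3 FPKM with overlap between neighbours. Liver cKO cells had Btg2 (219 FPKM) above Zfp36 (120), and Zfp36l2 (62.4) overlapping Ier2 (56.5). Liver YFP+ cells had Btg2 (283 FPKM) above Zfp36 (147), and Zfp36l2, Ier2, Zfp36l1 and Btg1 followed at 93.3, 88.2, 48.8 and 46.0 FPKM with overlap between neighbours. Ier5 and Ier3 came last in the liver of both origins, and Ier3 last in all 4 groups.

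Because the tables were normalized separately, levels across tissues are set side by side only as percentile ranks among all 23284 genes of a library. Zfp36 ranked between 97.8 and 99.5 in all 12 libraries and Btg2 between 98.8 and 99.1. Btg1 ranked at 98.3 to 98.8 in thymus cKO and 98.6 to 98.9 in thymus YFP+, and at 91.0 to 92.0 in liver cKO and 94.2 to 94.5 in liver YFP+ libraries. Ier5 ranked at 94.2 to 96.7 in thymus cKO and 91.6 to 93.8 in thymus YFP+, and at 80.2 to 83.2 in liver cKO and 80.1 to 82.9 in liver YFP+ libraries. Ier3 ranked at 72.1 to 77.7 in thymus cKO and 59.3 to 61.8 in thymus YFP+, and at 76.8 to 78.4 in liver cKO and 71.6 to 77.4 in liver YFP+ libraries. No test was made across the tables.

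Other immediate early genes were counted beside the Ier genes and Zfp36. Of 25 tested, 10 were higher and 3 lower in thymus cKO, with a median log2 difference of 0.83 relative to the median gene. Fosb, an AP-1 subunit, was at 3.72, 13.7 and 12.6 FPKM in cKO, against 0.817, 1.108 and 0.428 FPKM in YFP+ libraries. Fos, another subunit, was at 36.0, 70.7 and 69.7 FPKM in cKO, against 18.1, 22.5 and 6.46 FPKM in YFP+ libraries. Jun, their AP-1 partner, was at 28.7, 80.5 and 79.3 FPKM in cKO, against 21.0, 27.1 and 12.002 FPKM in YFP+ libraries. As for Zfp36, cKO replicate 1 was the lowest of the cKO libraries and YFP+ replicate 3 the lowest of all. The count of higher genes was 17 without cKO replicate 1, and 3 and 2 without cKO replicates 2 and 3. It was 3, 5 and 4 without YFP+ replicates 1, 2 and 3. With no filter on low values 0 of 29 were higher.

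Heat shock genes were higher in the same cells. Of 10 tested, 6 were higher and 0 lower in thymus cKO. The count of higher genes was 10 without cKO replicate 1, against 3 without any other single thymus library. With no filter on low values 0 of 11 were higher. Hspa1a, an inducible chaperone gene uncertain in level because its near-identical copy Hspa1b can share its reads, was at 90.7, 743 and 751 FPKM in cKO, against 6.05, 6.18 and 4.79 FPKM in YFP+ libraries. Hspa1b was at 108, 857 and 935 FPKM in cKO, against 7.12, 7.22 and 6.00 FPKM in YFP+ libraries. Hspa1l, a related chaperone gene, was at 8.29, 70.0 and 66.9 FPKM in cKO, against 0.888, 0.675 and 0.481 FPKM in YFP+ libraries. Dnajb1, a co-chaperone, was at 29.6, 88.0 and 89.3 FPKM in cKO, against 21.7, 20.3 and 21.0 FPKM in YFP+ libraries. Replicates 2 and 3 of cKO were high together in all 4 genes, as in Zfp36, Ier2 and Ier5. The part of heat shock or handling in the thymus values of the members was not tested.

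In the liver 16 of the 25 immediate early genes tested were lower in cKO and 1, the growth regulator Myc, was higher. Their median log2 difference was -1.04 relative to the median gene. Rgs1, a regulator of G protein signalling that was lower in thymus cKO too, was at 72.5, 71.4 and 67.8 FPKM in liver cKO, against 387, 363 and 342 FPKM in liver YFP+ libraries. Fos was at 17.1, 16.9 and 15.1 FPKM in cKO, against 79.4, 67.0 and 74.4 FPKM in YFP+ libraries. Atf3, a stress-induced transcription factor, was at 1.255, 0.283 and 0.454 FPKM in cKO, against 6.53, 6.51 and 6.36 FPKM in YFP+ libraries. The groups did not come near each other for these 3 genes, and no member differed by as much. Leaving out 1 liver library gave 15 or 16 lower genes. Heat shock genes gave 1 higher and 4 lower of 9 tested in the liver, with a median of 0.02 relative to the median gene. Their count of lower genes was 2 without cKO replicate 1, 2 or 3 or YFP+ replicate 2. The chaperone gene Hsph1 averaged 23.2 FPKM in liver cKO and 11.7 FPKM in liver YFP+ libraries, Dnajb1 24.2 FPKM in cKO and 51.0 FPKM in YFP+, and Hspd1 81.2 FPKM in cKO and 109 FPKM in YFP+ libraries. Between the tissues, 19 of 25 immediate early genes passed as lower and 3 as higher, with a median of -1.75 relative to the median gene.

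The deadenylation machinery was counted next. Of 24 tested genes of deadenylation and decapping 0 were higher and 3 lower in thymus cKO. Among all genes tested there, 2.64% were higher and 13.1% lower. The median log2 difference of the list was 0.01 relative to the median gene. The 3 lower genes were Rqcd1, a subunit of the deadenylase, the decapping factor Edc3 and the poly(A)-binding protein Pabpc1. Rqcd1 was at means of 4.84 FPKM in cKO and 6.71 FPKM in YFP+ libraries. Edc3 was at 4.88 FPKM in cKO and 6.65 FPKM in YFP+ libraries, and Pabpc1 at 78.1 FPKM in cKO and 92.9 FPKM in YFP+ libraries. Relative to the median gene, Rqcd1, Edc3 and Pabpc1 lay at log2 differences of -0.24, -0.21 and -0.08. In the liver 1 of 25 was higher and 2 were lower, with a median of 0.07 relative to the median gene. Among all genes tested there, 7.49% were higher and 19.7% lower. Cnot7, a deadenylase, was lower, at 3.83, 4.34 and 4.60 FPKM in liver cKO, against 5.28, 8.84 and 6.91 FPKM in liver YFP+ libraries. Lsm1, of the decapping complex, was lower, at 11.2, 9.58 and 7.34 FPKM in liver cKO, against 12.8, 13.9 and 16.5 FPKM in liver YFP+ libraries. Cnot6l, another deadenylase, was higher, at 17.6, 19.6 and 18.4 FPKM in liver cKO, against 16.2, 13.7 and 14.1 FPKM in liver YFP+ libraries. Of 3 tested relatives of the BTG and TOB family, Tob1, an antiproliferative protein, was higher in thymus cKO, at 11.7, 16.2 and 15.5 FPKM, against 9.35, 9.33 and 9.21 FPKM in YFP+ libraries (adjusted p = 0.019 in limma). Btg3 was lower in liver cKO, at 3.79, 3.04 and 4.27 FPKM, against 7.25, 4.96 and 6.61 FPKM in YFP+ libraries (adjusted p = 0.0243 in limma).

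Other decay regulators and quiescence-linked genes were counted in the same way. Among all genes tested, 2.64% were higher and 13.1% lower in thymus cKO, and 7.49% higher and 19.7% lower in liver cKO. Of 9 other regulators of AU-rich mRNAs tested in the thymus 1 was higher and 2 lower, and in the liver 0 of 8 were higher and 1 lower. The lower ones were the RNA-binding proteins Khsrp and Elavl1 in the thymus and Tia1 in the liver. Khsrp was at means of 16.2 FPKM in thymus cKO and 20.2 FPKM in thymus YFP+ libraries. Elavl1 was at 19.9 FPKM in thymus cKO and 24.4 FPKM in thymus YFP+ libraries. Tia1 was at 1.71 FPKM in liver cKO and 2.77 FPKM in liver YFP+ libraries. Relative to the median gene, Khsrp, Elavl1 and Tia1 lay at log2 differences of -0.13, -0.12 and -0.38. The higher one was Zc3h12a (regnase-1), an endonuclease that cleaves inflammatory mRNAs, at 3.11, 3.76 and 4.22 FPKM in thymus cKO, against 2.70, 2.52 and 1.84 FPKM in YFP+ libraries. Of 11 quiescence-linked genes in the thymus 2 were higher, Klf2 and S1pr1, and 1, the interleukin 7 receptor gene Il7r (means of 298 FPKM in cKO and 390 FPKM in YFP+ libraries), was lower, and in the liver 1 of 12 was higher and 3 were lower. Klf2, a transcription factor of resting T cells, was at 139, 132 and 127 FPKM in thymus cKO, against 66.0, 69.4 and 53.9 FPKM in YFP+ libraries. S1pr1, the receptor for exit from lymphoid organs, was at 13.1, 10.9 and 8.41 FPKM in thymus cKO, against 4.28, 4.23 and 4.50 FPKM in YFP+ libraries. In the liver S1pr1 averaged 16.6 FPKM in cKO and 12.4 FPKM in YFP+ libraries, and the lower Cdkn1a averaged 0.686 FPKM in cKO and 1.78 FPKM in YFP+ libraries and Pnrc1 20.7 FPKM in cKO and 26.9 FPKM in YFP+ libraries.

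Textbook targets of AU-rich decay moved both ways. In the thymus 3 of 8 tested were higher in cKO and 1 was lower, where 2.64% and 13.1% of all genes tested were. Fos and Myc belong to this list and to the immediate early genes counted above. Ifng, the type 1 cytokine, was at 41.0, 71.8 and 63.2 FPKM in thymus cKO, against 18.7, 24.3 and 11.5 FPKM in YFP+ libraries. Il4, the type 2 cytokine, was lower, at 0.432, 0.969 and 0.617 FPKM in thymus cKO, against 4.44, 4.20 and 4.02 FPKM in YFP+ libraries. In the liver 2 of 11 were higher and 6 lower. Il2, a growth factor of T cells, was higher in cKO in both tissues, at 2.91, 2.64 and 2.12 FPKM in thymus cKO, against 0.935, 0.782 and 0.835 FPKM in thymus YFP+ libraries. In the liver Il2 was at 5.68, 8.22 and 7.25 FPKM in cKO, against 2.53, 1.26 and 0.976 FPKM in YFP+ libraries. Ccl4, a chemokine of activated lymphocytes, was at 6.37, 4.12 and 6.70 FPKM in liver cKO, against 20.6, 28.4 and 19.96 FPKM in liver YFP+ libraries.

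The genes with the most similar profiles were found by the root mean square (RMS) difference of log2(FPKM + 1), each profile centred on its tissue mean, over 12 libraries and 8371 genes averaging 1 FPKM or more in each tissue. Nearest to Zfp36 were Hsp90aa1, Klf6 and Siah2, at RMS differences of 0.129, 0.171 and 0.185, while the profile of Zfp36 itself had an RMS of 0.45. Nearest to Ier5 were the chaperone genes Hsp90ab1 and Dnaja1 and then Zc3h12a, at 0.10, 0.11 and 0.13, against its own 0.24. Nearest to Ier3 were Lair1, Mcoln2 and Klre1, at 0.166, 0.182 and 0.185, against its own 0.464. Nearest to Btg1 were 2410006H16Rik, Pold4 and Orc2, each at 0.11, against its own 0.34. Nearest to Ier2 were 6330409N04Rik, Ccdc86 and Nfkbid, at 0.188, 0.204 and 0.216, against its own 0.436. For the least variable members, Psmb5, Slc25a3 and 4930473A06Rik were nearest to Zfp36l1 at 0.0482, 0.0556 and 0.0615, and Tprkb, Srsf7 and Rbm8a nearest to Btg2 at 0.0612, 0.0666 and 0.0682. Zfp36l2 had Polr2c, Hat1 and Ntan1 nearest, at 0.0973, 0.107 and 0.116. Among pairs of members, Zfp36l2 and Btg1 were closest, at 0.16, and Btg1 and Ier3 farthest apart, at 0.67. For Zfp36, the nearest member was Ier5, at 0.25, and its own relatives Zfp36l1 and Zfp36l2 lay at 0.51 and 0.50.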

How the data were processed

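RNA of sorted thymic and liver NKT cells was measured in 12 libraries, each from 10 ng of total RNA turned into cDNA with a SMARTer kit, per the labels' protocols; the sources used here do not say which had the TruSeq and which the ThruPLEX kit. The authors deposited FPKM in 1 table per tissue, normalized separately, and replicates are not pooled in them. Per the submitters' processing notes the values come from TopHat2 (2.8.0 as given there) and Cufflinks 2.1.1 on mm9. FPKM divide by transcript length and mapped total, so very abundant transcripts in a library lower its other values, and the depth behind a value is unknown. Whether counting used strand is not given. All 12 value columns were mapped by title, with 0 left over.

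Tests used limma-trend (limma 3.58.1, R 4.3.3) on log2(FPKM + 1) for genes averaging 1 FPKM or more across the libraries fitted, with adjusted p under 0.05 as the threshold; the script was tested on simulated data. A fold change on this scale understates the change of low genes. Alternatives were a pseudocount of 0.1, no filter on low values, median-ratio scaling, quantile normalization, array weights, a replicate block, spread over all 12 libraries, and leaving out each library. All 8 members are named, and of each pathway list in each tissue up to 3 genes that passed and did not overlap, by size relative to the median gene. Named after their values were seen were Dnajb1, Il2, Egr2, Dusp2 and Rgs1 in the thymus and Rag1, Dntt and Ifng in the liver. Myc and the NKT cell markers, Lyz2 and Trf were too, as were alternative counts for the immediate early and heat shock lists. The members and lists were chosen with earlier results of these data known. Sequences are from RefSeq and GENCODE M21, both on GRCm38.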

Additional observations from a re-analysis of the deposited data

Results flagged for a closer look

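The difference between cKO and YFP+ cells was not the same in liver and thymus for 4 members, by a test of that difference itself in limma over all 12 libraries. On the log2(FPKM + 1) scale as deposited, liver minus thymus was -1.26 for Zfp36, -0.66 for Btg1, -0.49 for Btg2 and -1.02 for Ier3. Over 18 alternatives the adjusted p was 0.000378 to 0.0786 for Zfp36, 0.00104 to 0.04 for Btg1, 0.00258 to 0.194 for Btg2 and 0.00099 to 0.0417 for Ier3, and each kept its direction in all 18. In the thymus all 3 cKO libraries of Zfp36 and Ier3 lay above all 3 YFP+ libraries, as for 5.34% of tested genes. In the liver all 3 cKO libraries of Btg1, Btg2 and Zfp36 lay below all 3 YFP+ libraries, as for 29.6% of tested genes. With quantile normalization Btg2 and Zfp36 did not pass within the liver (adjusted p = 0.994 and 0.898 in limma). The thymus and liver tables were normalized separately, and the causes were not tested.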

How the results depend on the processing

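Of single members' values under alternatives, 85 of 104 in the thymus, 87 of 104 in the liver and 137 of 144 between tissues kept their side of the threshold, and 0 that had passed turned round. In the thymus 1429 genes passed; the count was 481 with no filter on low values, 789 with median-ratio scaling, 825 with quantile normalization, 2798 with array weights and 472 to 2408 without 1 library. The split of higher and lower genes was 240 and 1189 as deposited, 367 and 422 with median-ratio scaling, and 397 and 428 with quantile normalization. Members higher in thymus cKO numbered 3, but 0 when low values were kept and 2 to 4 without 1 library; members lower numbered 0, but 1 with array weights and 0 to 1 without 1 library. In the liver 2607 genes passed, 718 higher and 1889 lower, with 3940 under array weights, 1539 to 2640 without 1 library; median-ratio scaling gave 1003 higher and 1058 lower, quantile normalization 1225 and 921. Members lower in liver cKO numbered 4, but 2 with median-ratio scaling or quantile normalization and 3 to 6 without 1 library. Between tissues 1466 genes passed, with 2634 under array weights and 983 to 1700 without 1 library, and the 4 members were 2 with quantile normalization and 4 to 5 without 1 library. The cause of these shifts was not tested. Of the 24 nearest genes 18 were shared at a pseudocount of 0.1.

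Replicate numbers are shared by the groups, but nothing in the labels ties them together, and deviations of libraries with the same number had correlations of -0.0465 to 0.00763 (thymus) and of -0.0634 to 0.0659 (liver), and not every library correlated best with its own number. With a replicate block 787 genes passed in the thymus, 2214 in the liver and 1058 between tissues, and Zfp36 lost its calls within both tissues. Depth is unknown, so no limit of detection can be given.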
